A study of Homo sapiens with 4 samples.

Results

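TGF-beta and activin signalling was described through 10 genes: the ligand genes TGFB1, TGFB2, INHBA and INHBB, the receptor gene TGFBR1, the SMAD genes SMAD3 and SMAD7, and SKIL, PMEPA1 and TGFBI, which the pathway induces or which restrain it. They were taken by name, as the rows whose Ensembl identifier carries one of these symbols, and all 10 were present among the 58051 genes of each count file. Both groups were A549, an established human lung carcinoma line, with A-FOS inserted at random by piggyBac transposase under doxycycline control, grown in serum-containing medium. The plus Dox group (2 libraries) received doxycycline at 1 µg/mL and the minus Dox group (2 libraries) received none, and the labels name no added TGF-beta or activin. A-FOS is a dominant-negative FOS that pairs with JUN proteins and keeps them off DNA, so plus Dox is meant to block AP-1. The counts do not measure AP-1 binding. Separate cultures are not stated in the labels for the libraries of either group, so p-values measure the spread between these libraries, which may be technical. Both groups carry the transgene and no library holds doxycycline without it, so doxycycline and A-FOS cannot be told apart.

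TGF-beta ligands are secreted in a latent form, held in the matrix by latent TGF-beta binding proteins and released by integrins, proteases and thrombospondin. The freed ligand joins a type II and a type I receptor kinase, activins do the same with their own receptors, and the type I kinase phosphorylates SMAD2 and SMAD3, which enter the nucleus with SMAD4. Active SMADs switch on matrix genes and also inhibitors of the pathway itself, among them SMAD7, SKIL and PMEPA1. Lung epithelial cells, A549 among them, are known to lose epithelial features when treated with TGF-beta, and SMADs and AP-1 are known to act together on many targets.

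Total counts ranged from 31104964 to 32727539 in plus Dox and from 36377784 to 40526912 in minus Dox. Levels below are TMM-scaled CPM, which are counts scaled to a common total, using a library size adjusted by edgeR's trimmed mean of M-values. Reads counted to FOS, which may include those of A-FOS, stood at 48.6 and 51.0 CPM in plus Dox, against 1.36 and 1.52 CPM in minus Dox. In edgeR's quasi-likelihood test, Benjamini-Hochberg adjusted at 0.05, 56.9% of the 18046 tested genes passed, 28.4% with higher and 28.4% with lower counts under doxycycline. The groups did not overlap in 77% of tested genes, including all 9 tested members. The epithelial markers KRT8, KRT18, KRT7, EPCAM and CDH1 were present, and summed to 6272 to 6468 CPM in plus Dox and 12503 to 12844 CPM in minus Dox. Most of that gap was KRT7, at 528 and 524 CPM in plus Dox and 4445 and 4643 CPM in minus Dox, while KRT8 and KRT18 were 1.44-fold and 1.31-fold lower in plus Dox and CDH1 did not pass. The 6 fibroblast markers summed to 81.5 to 84.5 CPM in plus Dox and 67.5 to 75.5 CPM in minus Dox. Nearly all of it was THY1, which was higher in plus Dox (log2 fold change 0.73), and COL1A1, which was lower (−0.19). LUM and PDGFRB did not pass, at means of 3.19 and 1.45 CPM in plus Dox and 4.21 and 1.19 CPM in minus Dox. COL1A2 and DCN had 0 or 1 count in each library. The 4 leukocyte markers summed to 1.19 to 1.48 CPM in plus Dox and 2.05 to 2.69 CPM in minus Dox. Of these CD14 was lower in plus Dox, and PTPRC, too low to be tested, had 8 and 4 counts in plus Dox and 0 and 0 in minus Dox. The 3 endothelial markers summed to 0.805 to 1.19 CPM in plus Dox and 1.51 to 1.63 CPM in minus Dox. PECAM1 and CDH5 were lower in plus Dox, and VWF was higher, with 17 and 22 counts against 3 and 0. The part of these shifts in the results below was not tested, and in bulk RNA fewer cells of a type and less RNA per cell cannot be told apart.

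Start-site windows of the 10 genes, 250 bases before to 50 bases after each RefSeq start (GRCh38.p14), were searched for short motifs, because the study is about AP-1 and forkhead binding. The table holds 26 windows for them, because some genes have several starts. The AP-1 motif TGANTCA, a palindrome read on both strands, was in 1 of the 26 windows, at an internal start of SMAD3, against 7.71% of all 35116 windows. The cAMP response element TGACGTCA, which ATF and JUN dimers are known to bind, does not contain the AP-1 motif. It was in 2 of the 26 windows, 1 of SKIL and 1 at an internal start of PMEPA1, against 1.85% of all windows. These 3 stretches are shown because they hold the only AP-1 and CRE letters found in the windows. Capitals mark the motif, which begins 56, 54 and 4 bases before the start in SMAD3, SKIL and PMEPA1.
SMAD3 (chr15:67125666-67125712, plus strand): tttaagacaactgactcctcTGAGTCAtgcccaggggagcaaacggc
SKIL (chr3:170357641-170357688, plus strand): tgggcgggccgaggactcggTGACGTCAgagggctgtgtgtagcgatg
PMEPA1 (chr20:57709992-57710039, minus strand): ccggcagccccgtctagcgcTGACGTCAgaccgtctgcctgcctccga
The forkhead motif TGTTTAC, read on both strands, was in 0 of the 26 windows and in 3.42% of all windows, and the SMAD palindrome GTCTAGAC in 0 of the 26 and in 0.202% of all. The shorter SMAD element CAGACA, read on both strands, was in 6 of the 26, in windows of TGFB2, INHBA, TGFBR1, SMAD3 and PMEPA1, against 16.9% of all windows. A match is a description of letters and not a bound site, and AP-1 sites far from starts lie outside these windows.

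Of the 10 genes 9 had enough counts to be tested. Of these 9, 6 fell, 2 rose and 1 did not pass, where 28.4% of all tested genes fell and 28.4% rose. The falls were the ligands TGFB2 and INHBB, the signal transducer SMAD3, the inhibitors SMAD7 and PMEPA1, and the matrix protein TGFBI. The rises were the ligand TGFB1 and the co-repressor SKIL, and the receptor TGFBR1 did not pass. The median log2 fold change of the 9 was −1.08, against 0.00 over all tested genes. Changes of at least 2-fold were found in 5 of the 9, all of them falls, where 6.01% of all tested genes fell and 6.7% rose that far (12.7% together). Tested against a fold of 1.5 in place of no change, with edgeR's glmTreat, 5 passed as lower and 1, SKIL, as higher, where 6.9% of all tested genes passed as lower and 7.81% as higher (14.7% together). With library size only as the scaling, 6 members passed as lower and 3 as higher, where 16.2% of all tested genes passed as lower and 43.6% as higher (59.8% together). In DESeq2's Wald test the 9 members had the same calls as in edgeR, where 40.9% of 19699 genes with an adjusted p were called.

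**Figure D1:**
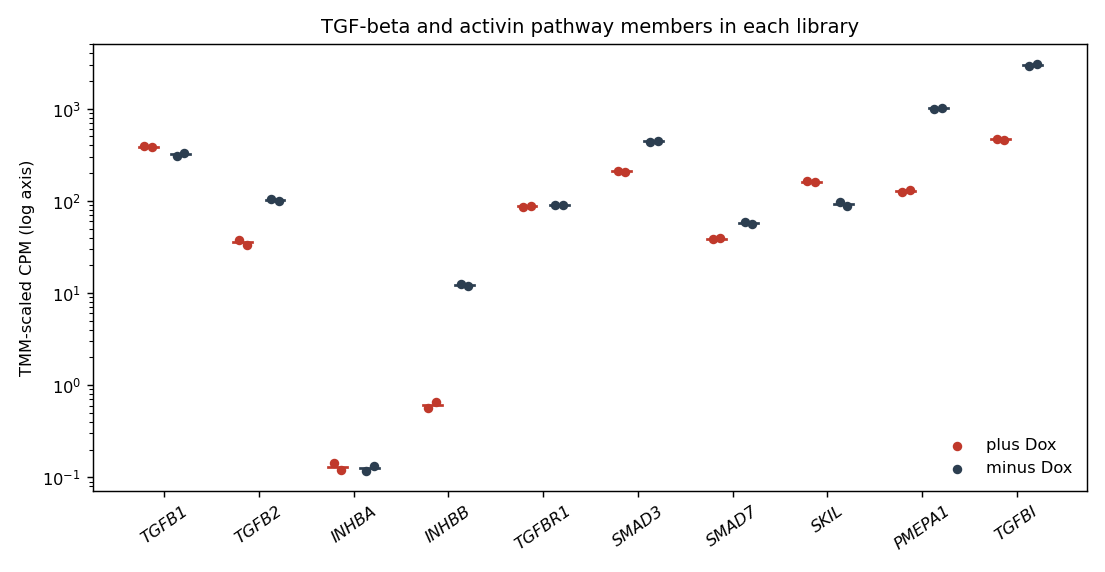
TMM-scaled CPM on a log axis of the 10 genes in each library, with plus Dox (red) left of minus Dox (dark blue), points for libraries and bars for the mean of 2. TGFBI, PMEPA1, SMAD3, TGFB2 and INHBB lie well below their minus Dox values in plus Dox, and INHBA lies near 0.1 CPM in all 4 libraries.

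TGFB1, a ligand made by many cell types and stored in platelets (ENSG00000105329, chromosome 19, 41301587 to 41353911, GENCODE 29 on hg38), stood at 392.5 and 383 CPM in plus Dox, against 310 and 329 CPM in minus Dox. Both plus Dox libraries lay above both minus Dox libraries. The log2 fold change was 0.28 (SE 0.04; 95% interval 0.20 to 0.36), with an adjusted p of 8.34e-08 in edgeR, and it did not pass against a fold of 1.5. The gene shares 6.64% of its exon bases with HNRNPUL1 on the opposite strand, whose count moved the other way (log2 fold change −0.33). TGFB2 (ENSG00000092969, chromosome 1, 218346235 to 218444619), a second ligand of the same receptors that depends more on the co-receptor betaglycan, stood at 37.4 and 33.4 CPM in plus Dox, against 104 and 100.2 CPM in minus Dox. The groups were far apart. The log2 fold change was −1.52 (SE 0.06; interval −1.64 to −1.41), with an edgeR adjusted p of 2.26e-22. TGFB2-OT1, which takes up 26.6% of its exon bases on the same strand, is listed at 0 in all 4 libraries, and how reads of that stretch were assigned is not given in the sources used here.

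The mix of TGF-beta ligands is a ratio within each library and does not depend on the scaling between them. Per kilobase of exon, TGFB2 made up 5.64% and 5.18% of TGFB1, TGFB2 and TGFB3 together in plus Dox, against 17.3% and 16.0% in minus Dox. TGFB1 made up 94.0% and 94.5% in plus Dox and 82.4% and 83.7% in minus Dox, and TGFB3 0.246% to 0.359% in the 4 libraries. As plain shares of counts, TGFB2 held 8.66% (95% exact binomial interval 8.22% to 9.12%) and 7.99% (7.54% to 8.45%) in plus Dox, against 25.0% (24.3% to 25.7%) and 23.3% (22.6% to 23.9%) in minus Dox. Such intervals cover counting error only.

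**Figure D2:**
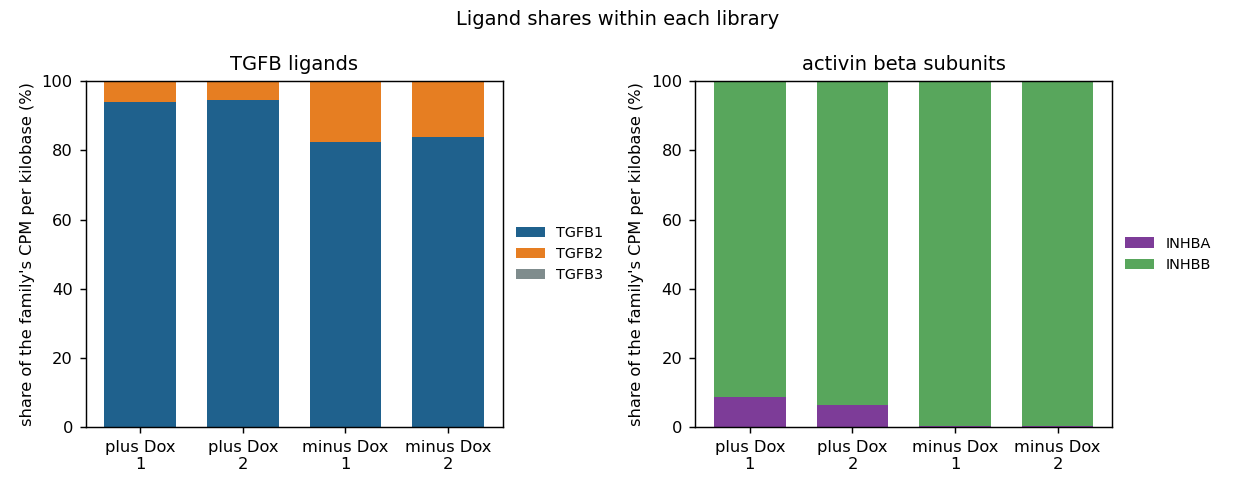
Share of each ligand gene in the CPM per kilobase of its family, in percent, for plus Dox libraries (left) and minus Dox libraries (right) of each panel. The activin beta subunits drawn are INHBA and INHBB alone, without INHBC and INHBE. TGFB3 is too small to see. TGFB2 takes 5.18% to 5.64% of the TGF-beta ligands in plus Dox and 16.0% to 17.3% in minus Dox, and INHBA shows in plus Dox where INHBB is low.

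INHBB encodes the beta B subunit, which pairs with itself to form activin B (ENSG00000163083, chromosome 2, 120346143 to 120351808). It had 20 and 22 counts, 0.568 and 0.656 CPM, in plus Dox, against 420 and 450 counts, 12.4 and 12.0 CPM, in minus Dox. It had the lowest fitted change of the 9 tested genes, 19.9-fold lower in plus Dox, a log2 fold change of −4.31 (SE 0.19; interval −4.69 to −3.93) with an edgeR adjusted p of 1.12e-20. Among all tested genes 0.205% had a log2 fold change as low. INHBA, the beta A subunit of activin A (ENSG00000122641, chromosome 7, 41667168 to 41705834), had 5 and 4 counts in plus Dox, against 4 and 5 counts in minus Dox. This is close to the 3 counts that a count of 0 allows in a library, INHBA was too low to be tested, and no fold is given. INHBE, another beta subunit gene, stood at 0.396 and 0.317 CPM per kilobase in plus Dox and 0.343 and 0.310 in minus Dox. By the same measure INHBB stood at 0.177 and 0.205 in plus Dox and 3.88 and 3.75 in minus Dox. The shares below leave out INHBE, and INHBC, which was too low to be tested. Of INHBA and INHBB together per kilobase, INHBB made up 91.2% and 93.4% in plus Dox, against 99.6% and 99.6% in minus Dox. The INHBA share of counts rests on those few reads, 5 of 25 counts (95% exact interval 6.83% to 41%) and 4 of 26 (4.36% to 34.9%) in plus Dox, against 4 of 424 (0.258% to 2.40%) and 5 of 455 (0.358% to 2.55%) in minus Dox.

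TGFBR1 encodes ALK5, the type I receptor kinase for TGF-beta (ENSG00000106799, chromosome 9, 99104038 to 99154192). It stood at 85.6 and 88.7 CPM in plus Dox, against 90.7 and 90.3 CPM in minus Dox, with the groups close but not overlapping. The log2 fold change was −0.05 (SE 0.05), with an adjusted p of 0.359 in edgeR, and its 95% interval ran from −0.15 to 0.04. With library size only, which shifts the median log2 fold change over the table to 0.22, it passed as higher (0.16, edgeR adjusted p = 0.00431).

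SMAD3, the receptor-activated SMAD that binds DNA (ENSG00000166949, chromosome 15, 67063763 to 67195195), stood at 213 and 207 CPM in plus Dox, against 438 and 449 CPM in minus Dox. The groups were far apart, with a log2 fold change of −1.08 (SE 0.04; interval −1.157 to −1.004) with an edgeR adjusted p of 1.99e-23. SMAD7, the inhibitory SMAD that draws ubiquitin ligases to the receptor (ENSG00000101665, chromosome 18, 48919853 to 48952052), stood at 38.4 and 39.4 CPM in plus Dox, against 58.4 and 56.1 CPM in minus Dox. Its groups were also apart, with a smaller log2 fold change of −0.56 (SE 0.06; edgeR adjusted p = 5.23e-10) that did not pass against a fold of 1.5. The level of SMAD7 over that of SMAD3, both per kilobase in the same library, was 0.327 and 0.345 in plus Dox and 0.241 and 0.226 in minus Dox. Both plus Dox libraries were above both minus Dox libraries in this ratio, which was not tested.

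SKIL encodes SnoN, a co-repressor that binds SMAD complexes and is itself a SMAD target (ENSG00000136603, chromosome 3, 170357678 to 170396835). It stood at 166 and 158 CPM in plus Dox, against 98.3 and 88.9 CPM in minus Dox. It was 1.73-fold higher in plus Dox, a log2 fold change of 0.79 (SE 0.05; interval 0.70 to 0.89) with an edgeR adjusted p of 1.81e-16. PMEPA1, a membrane protein that TGF-beta induces and that keeps SMAD2 and SMAD3 from the receptor (ENSG00000124225, chromosome 20, 57648392 to 57711536), moved the other way. It stood at 126 and 131 CPM in plus Dox, against 990.2 and 1027 CPM in minus Dox. It was 7.85-fold lower in plus Dox, a log2 fold change of −2.97 (SE 0.04; interval −3.05 to −2.89) with an edgeR adjusted p of 2.97e-36. Both genes have a TGACGTCA in a start window shown above, and they moved in opposite directions. For SKIL this is its only window, and for PMEPA1 it is 1 of 4, at an internal start. NKILA, a long non-coding RNA on the opposite strand that overlaps 6.10% of the exon bases of PMEPA1, stood at 2.30 and 2.30 CPM in plus Dox and 22.0 and 23.8 CPM in minus Dox. Its log2 fold change was −3.32 (edgeR adjusted p = 1.22e-22). The strand setting of the counting is not given in the sources used here, so reads from the overlap of this pair cannot be told apart.

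TGFBI, a secreted matrix protein that binds integrins and is named for its induction by TGF-beta (ENSG00000120708, chromosome 5, 136028895 to 136063818), stood at 470 and 456 CPM in plus Dox, against 2886 and 3032 CPM in minus Dox. It was 6.39-fold lower in plus Dox, a log2 fold change of −2.68 (SE 0.03; interval −2.75 to −2.61) with an edgeR adjusted p of 2.97e-36. In minus Dox it was the most abundant of the 10 genes, at a level per kilobase above 99.5% of tested genes when averaged over the 4 libraries.

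**Figure D3:**
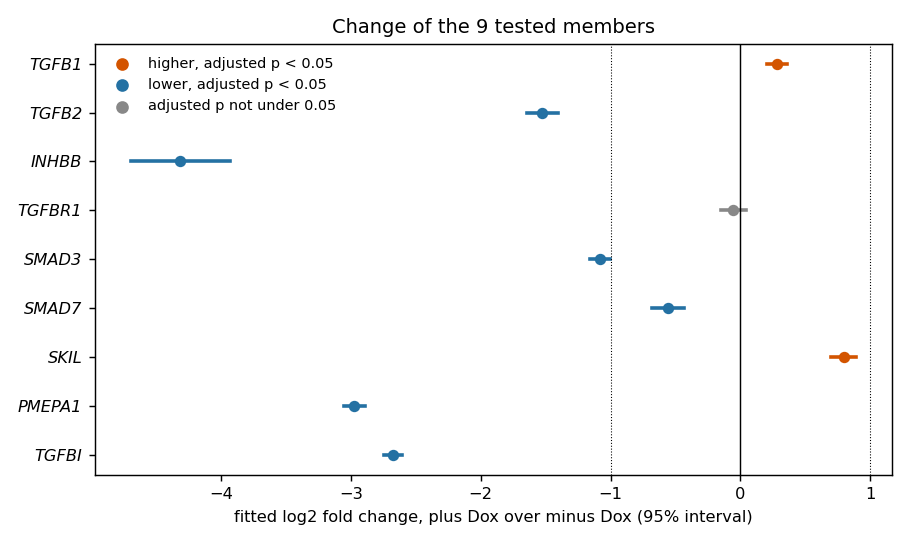
Fitted log2 fold change of plus Dox over minus Dox for the 9 tested genes, with 95% intervals as bars and dotted lines at a 2-fold change. TGFB1 and SKIL lie right of 0, TGFBR1 has an interval that spans 0, and the other 6 lie left of it, INHBB farthest at −4.31.

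The order of the 10 genes by level per kilobase of exon changed between the groups. In plus Dox TGFB1 came first with 119.7 ± 2.14 CPM per kilobase (SD, n = 2 here and below), then TGFBI with 59.3 ± 1.22, SMAD3 with 23.0 ± 0.501, PMEPA1 with 22.9 ± 0.610, SKIL with 20.8 ± 0.679, TGFBR1 with 12.7 ± 0.323, SMAD7 with 7.73 ± 0.132, TGFB2 with 6.88 ± 0.553, INHBB with 0.191 ± 0.0194 and INHBA with 0.0157 ± 0.00193. In minus Dox TGFBI came first with 379 ± 13.2 CPM per kilobase, then PMEPA1 with 179 ± 4.58, TGFB1 with 98.7 ± 4.18, SMAD3 with 48.7 ± 0.805, TGFB2 with 19.8 ± 0.486, TGFBR1 with 13.2 ± 0.0428, SKIL with 12.0 ± 0.854, SMAD7 with 11.4 ± 0.318, INHBB with 3.81 ± 0.0924 and INHBA with 0.0152 ± 0.00128. SMAD3 and PMEPA1 overlapped between libraries in plus Dox, as did SKIL and SMAD7 in minus Dox, and the other neighbours in each order did not. Exon length was taken from all GENCODE 29 transcripts of a gene, so these levels depend on which transcripts the cells use.

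The other genes of the pathway were 84 in 6 lists, written from their known roles but with earlier results of these data known. They had 74 tested members. Of these 39 fell and 19 rose, with a median log2 fold change of −0.20, where 28.4% of all tested genes fell and 28.4% rose. With library size only, 26 fell and 29 rose, where 16.2% of all tested genes fell and 43.6% rose, so these counts and those of single lists below are to be read against that background.

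Target genes of TGF-beta rose in 2 of 24 tested cases, fell in 21 and failed the test in 1, with a median log2 fold change of −0.50. With library size only 14 fell and 3 rose. Against a fold of 1.5, 10 passed as lower and 0 as higher, where 6.9% of all tested genes passed as lower and 7.81% as higher. TGM2, a transglutaminase that cross-links matrix, stood at 1057 and 1052 CPM in plus Dox, against 2934 and 3085 CPM in minus Dox. The basement membrane collagens COL4A1 and COL4A2, which share a promoter, had log2 fold changes of −1.86 and −1.66. Those that rose, picked out once values were known, were CCN2, a matricellular growth factor, at 0.29, and the collagen cross-linking enzyme LOX at 1.22. LOX was low, at 1.56 and 1.64 CPM in plus Dox and 0.592 and 0.774 CPM in minus Dox (SE 0.33, interval 0.54 to 1.90). Neither passed against a fold of 1.5. MMP9 was the 1 that did not pass in the test against no change. CDKN2B was the 1 not tested, listed at 0 in all 4 libraries, which allows up to 0.0800 to 0.0895 CPM in each.

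Genes of latency and activation fell in 10 of 13 tested members and rose in 0, with a median of −0.44. With library size only 7 fell and 2 rose. Against a fold of 1.5, 6 passed as lower and 0 as higher, where 6.9% of all tested genes passed as lower and 7.81% as higher. LTBP2 and LTBP3, matrix proteins of the latent TGF-beta binding family, stood at 66.1 and 64.1 CPM and at 194 and 194 CPM in plus Dox, against 225 and 246 CPM and 376 and 425 CPM in minus Dox. ITGB6, the integrin subunit that frees latent TGF-beta on epithelia, stood at 2.67 and 1.40 CPM in plus Dox, against 24.7 and 25.1 CPM in minus Dox, and AC092153.1 on the same strand covers 20.6% of its exon bases. THBS1, an activator of latent TGF-beta, had a log2 fold change of −0.84 (SE 0.04). LTBP1, also picked with its value known, did not pass, at 44.3 and 45.2 CPM in plus Dox and 45.0 and 45.1 CPM in minus Dox.

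Receptors and co-receptors rose in 5 of 9 tested members and fell in 2, with a median of 0.33. Against a fold of 1.5, 2 passed as higher and 1 as lower, where 7.81% of all tested genes passed as higher and 6.9% as lower. TGFBR2, the type II receptor for TGF-beta, stood at 218 and 219 CPM in plus Dox, against 296 and 290 CPM in minus Dox (log2 fold change −0.42, SE 0.04), and the co-receptor TGFBR3, betaglycan, at 15.9 and 14.9 CPM in plus Dox, against 26.5 and 30.1 CPM in minus Dox. The activin type II receptor ACVR2A stood at 12.5 and 10.4 CPM in plus Dox, against 5.74 and 5.52 CPM in minus Dox, and the activin type I receptor ACVR1B at 59.1 and 62.3 CPM in plus Dox, against 43.6 and 45.0 CPM in minus Dox. Both receptors that fell bind TGF-beta, and the 5 that rose were, by a listing made with values known, ACVR1B, ACVR1C, ACVR2A and ACVR2B, which serve activins and related ligands, and the pseudoreceptor BAMBI. TGFBR1, which also serves TGF-beta, did not pass (log2 fold change −0.05), and neither did the co-receptor ENG (0.15) or TGFBRAP1 (0.10). Whether the TGF-beta and activin branches differ was not tested. ACVR1C was low, at 1.16 and 1.13 CPM in plus Dox and 0.177 and 0.427 CPM in minus Dox.

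Of 7 tested ligands and antagonists 1 rose, 1 fell and 5 did not pass, with a median of −0.05 that was 0.17 with library size only. GDF11, a ligand that signals through activin receptors, stood at 73.8 and 74.3 CPM in plus Dox, against 37.0 and 41.6 CPM in minus Dox. The activin inhibitor FSTL3 stood at 106 and 108 CPM in plus Dox, against 179 and 189 CPM in minus Dox (log2 fold change −0.78, SE 0.04). FST, follistatin, did not pass at 0.739 and 1.07 CPM in plus Dox and 1.12 and 1.71 CPM in minus Dox, but did without minus Dox replicate 1 (log2 fold change −0.93, edgeR adjusted p = 0.0316). TGFB3 did not pass either, at 2.22 and 2.21 CPM in plus Dox and 1.63 and 1.47 CPM in minus Dox, and passed as higher with library size only (0.73, edgeR adjusted p = 0.0106).

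SMADs and SMAD partners rose in 6 of 10 tested members and fell in 1, with a median of 0.20. Over all tested genes 28.4% rose and 28.4% fell. Against a fold of 1.5, 0 passed as higher and 1 as lower, against 7.81% and 6.9% of all tested genes. With library size only 8 rose and 1 fell, with a median of 0.42, against 43.6% and 16.2% of all tested genes. SMAD2, the partner of SMAD3 in receptor signalling and a member named after its value was seen, did not pass at 163 and 164 CPM in plus Dox and 158 and 155 CPM in minus Dox. The co-repressors TGIF1 and TGIF2 moved apart, at 81.2 and 80.0 CPM and at 23.3 and 25.4 CPM in plus Dox, against 123 and 136 CPM and 14.4 and 14.9 CPM in minus Dox. TRIM33, a ubiquitin ligase that binds SMADs, and the acetyltransferase CREBBP had log2 fold changes of 0.51 and 0.29. Repressors and ubiquitin ligases rose in 5 of 11 and fell in 4, with a median of 0.03, against 7 rises and 1 fall under scaling by library size, where 43.6% of all tested genes rose and 16.2% fell. SKI, the relative of SKIL, rose by 0.39 on the log2 scale (SE 0.05), the ligase WWP1 by 0.76 and the phosphatase PPM1A by 0.39. LDLRAD4, the relative of PMEPA1 that also holds back SMAD2 and SMAD3, fell to 2.98 and 2.68 CPM in plus Dox, against 5.50 and 6.88 CPM in minus Dox.

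**Figure D4:**
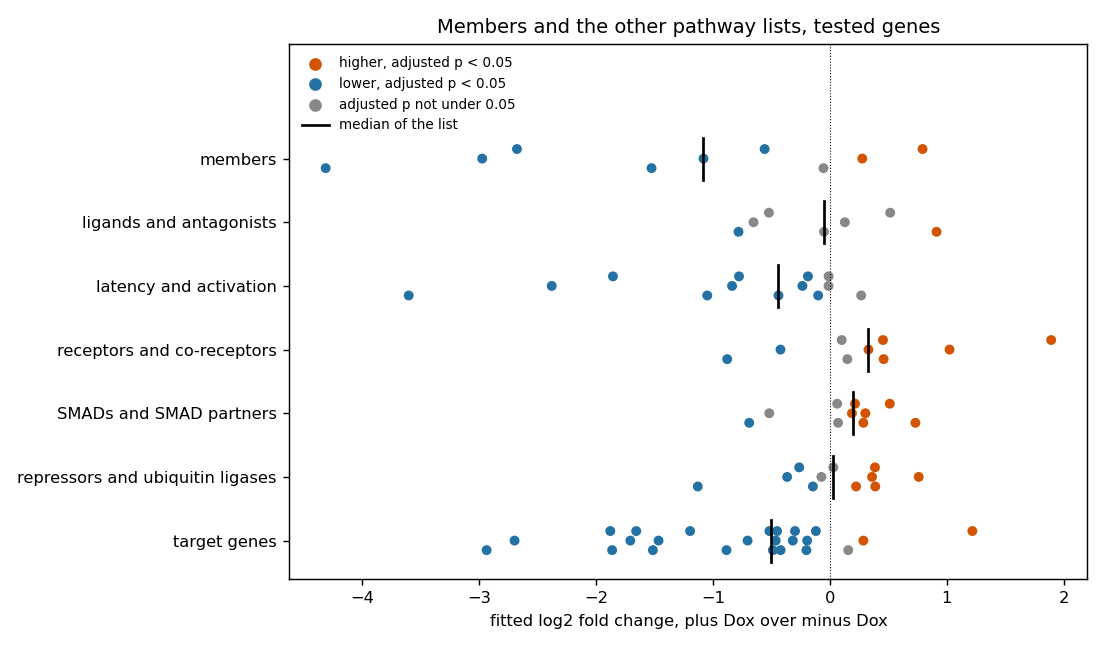
Fitted log2 fold change of plus Dox over minus Dox for each tested gene of the 10 named genes ("members") and of the 6 other pathway lists, coloured by call, with the median of each list as a black bar. Target genes and genes of latency and activation lie mostly left of 0 (medians −0.50 and −0.44), and receptors and SMAD partners mostly right of it (0.33 and 0.20).

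The pattern of INHBB over the 4 libraries was compared by the distance between log2 CPM centred on each gene's mean. Candidates were other genes with a symbol and at least 10 CPM on average. INHBB itself was under that level, at means of 0.612 CPM in plus Dox and 12.2 CPM in minus Dox. Genes as low as INHBB were therefore not searched. The closest were DIO2, an enzyme that activates thyroid hormone, MARCHF4, a membrane ubiquitin ligase, and DKK1, a WNT inhibitor. Their distances were 0.111, 0.251 and 0.373 on the log2 scale. DIO2 stood at 2.13 and 2.51 CPM in plus Dox, against 48.2 and 45.1 CPM in minus Dox. The pattern of SKIL was closest to those of ACER3, PPTC7 and CLOCK, with distances of 0.023, 0.025 and 0.026, among 9961 other candidates. With 4 libraries in 2 groups, such likeness says little beyond a fold change of about the same size.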

How the data were processed

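Each library has a deposited table of unnormalized read counts for Ensembl genes, made by the authors, per the file headers. The submitters' processing notes list, with no role or order, featureCounts 2.0.3, STAR 2.7.10b, DRAGEN, DESeq2 2.11.40.7 and cutadapt 4.0, and build hg38. For annotation release and strand setting, nothing is stated in the labels.

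Counts were analysed in R 4.3.3 with edgeR 4.0.16: filterByExpr at its defaults (18046 genes kept), TMM scaling (factors 1.077 and 1.079 in plus Dox, 0.930 and 0.926 in minus Dox), and the quasi-likelihood test of plus Dox against minus Dox without covariates, with Benjamini-Hochberg adjustment over all tested genes. DESeq2 1.42.0 was an alternative. Log2 CPM used a prior count of 2. Coordinates, exon lengths and shared exon bases came from GENCODE 29, symbols from a table that matched 56948 of the 58051 identifiers, and promoter windows from RefSeq (GRCh38.p14). The pipeline was tested on simulated counts. A count of 0 allows up to 3 counts, 0.0800 to 0.0895 CPM. Members, lists and tests were chosen with earlier results of these data known. Named genes were all 10 members, FOS, up to 4 genes per list with the lowest adjusted p, and the 3 genes nearest in pattern to the members with the lowest and the highest fold change. A gene that this rule names among the targets is not reported here. Alternatives changed the scaling, the filter, the tool, the fold tested against, the replicate block and the libraries included.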

Additional observations from a re-analysis of the deposited data

How the results depend on the processing

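Of the 9 tested members, all kept their call under DESeq2 size factors, upper quartile scaling, no filter, DESeq2's Wald test, the replicate block and each left-out library. With library size only TGFBR1 turned to 0.16, and against a fold of 1.5 TGFB1 and SMAD7 did not pass. The median of the members was −0.86 with library size only, and, with INHBA included, −0.83 with no filter and −0.82 in DESeq2's Wald test. Against a fold of 1.5, 1 member was higher, 4 other pathway genes were higher and 20 lower, and 1410 of all genes were higher and 1245 lower. With library size only, 29 other pathway genes were higher (median 0.019), and 7865 of all genes were higher and 2925 lower (median 0.22). The median of all genes was 0.028 with no filter and 0.034 in DESeq2's Wald test. Leaving out 1 library gave medians of −0.25 to −0.14 for the other pathway genes and −0.0040 to 0.012 for all genes. The replicate block gave 5219 higher and 5195 lower genes, with 2 members higher and 6 lower. The replicate numbers share no batch in the labels, and the differences between replicates 1 and 2 of the 2 groups had a correlation of 0.0023 over tested genes. Counts of 4 or 5 per library leave INHBA with no usable change.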
